A study of Danio rerio with 2 samples.

Results

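Transcripts of 6 zebrafish genes of prostaglandin synthesis were followed through single cells of juvenile craniofacial cartilage. The genes were ptgdsb.1, ptgdsb.2, ptgs1, ptgs2a, ptgs2b and ptges. They were picked by name, each name matched 1 row, and they are 6 of the 35117 genes in the deposited files. They were proposed because of how ptgdsb.1 behaved in these same libraries, so the levels and ratios below are descriptions. The study compared wild-type (WT) fish with fish homozygous for el802, an allele of nkx3.2, which encodes a homeodomain transcription factor of the jaw joint. There was 1 library per genotype, aged 21 days post fertilization for WT and 22 days for the mutant. The fish of both libraries carried the transgenes Tg(fli1a:EGFP)y1 and Tg(sox10:DsRed)el10, and live cells positive for both reporters had been sorted. The number of fish behind each library is not given in the labels, and with 1 library per genotype no test between genotypes was possible.

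The analysis used 2051 WT and 1996 mutant cells, with a median of 5778 and 6998.5 unique molecular identifiers (UMIs, counted transcripts) per cell. Both libraries had cartilage transcripts: all 13 chondrocyte markers present in the files had UMIs, and they summed to 47229 CPM in WT cells, against 31303 CPM in mutant cells (CPM being UMIs scaled to the usual common total per library or group). Transcripts of nkx3.2 itself were counted at 45.6 CPM in WT cells (95% counting interval 42.1 to 49.3). In mutant cells they stood at 41.5 CPM (38.4 to 44.7), and the intervals overlapped. Of 12 macrophage markers 7 had a UMI in each library, and they summed to 17.2 CPM in WT cells, 10.0 in mutant cells, mostly from laptm5 (169 and 123 UMIs). Of 5 neutrophil markers 3 and 2 had a UMI, and nearly all of their 583 and 121 UMIs were mmp9 (578 and 105), a gelatinase gene, of which the mmp13b/ihha gate held most. Of the 2 lists, marco, c1qa, c1qb, lcp1, lyz and npsn had 0 UMIs in both libraries. The other macrophage genes had few UMIs in WT and mutant cells: mfap4 33 and 19, cd74b 14 and 9, cd74a 8 and 3. For coro1a they were 7 and 5, for csf1ra 6 and 3, for ptprc 2 and 0, and for mpeg1.1 0 and 1. The other neutrophil genes were mpx with 3 and 0 and lect2l with 2 and 16. The libraries shared 4 barcodes, and leaving those cells out kept each of 35 recomputed ratios within its counting interval.

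Prostaglandins are lipid signals made from arachidonic acid, which phospholipases free from membranes. Cyclooxygenases, encoded here by ptgs1, ptgs2a and ptgs2b, turn it into a common intermediate. Terminal synthases then make single products: ptges encodes a prostaglandin E synthase, and ptgdsb.1 and ptgdsb.2 encode lipocalin-type prostaglandin D synthases. In mammals the lipocalin-type enzyme also binds retinoids and other small lipophilic molecules, and prostaglandins act on cartilage and bone cells.

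Cells were placed in groups by the UMIs of marker genes, none of them among the 6 genes. A cell went to the first gate it passed, and cells that passed none are called ungated. The gates were named for their markers: mmp13b/ihha and col10a1a (hypertrophic cartilage genes), matn1-high and epyc (cartilage matrix genes), fn1b/tgm2l, mgp/f13a1b, six2a, krt4/icn, ccl25b/cxcl12a, and a fibrous gate on col5a1, postnb and mfap2 with low matn1. These 10 gates and the ungated cells held at least 30 cells in each library. A gate on the osteoblast genes ifitm5 and bglapl held 32 WT and 16 mutant cells and was not compared. Levels below are CPM of the UMIs summed over a group, with exact Poisson 95% intervals, and ratios are mutant over WT with exact conditional intervals. These intervals cover counting error only, and the spread between cells and between fish is larger or unknown.

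The prostaglandin D synthase gene ptgdsb.1 (ENSDARG00000027088) was among the most abundant transcripts of the sort. It had 16906 UMIs in WT cells and 27208 in mutant cells, and ranked 137th of 19133 and 122nd of 19278 detected genes by UMIs. Its WT level by gate was 6068 CPM in the col10a1a gate, 3958 in the ccl25b/cxcl12a gate, 3916 in the krt4/icn gate and 1980 in the fibrous gate. The ungated cells stood at 4497 CPM. Below them came the mgp/f13a1b gate at 994 CPM, epyc at 680, six2a at 652, fn1b/tgm2l at 442, mmp13b/ihha at 359 and matn1-high at 196. The col10a1a gate was thus the highest and the matn1-high gate, the largest group with 772 WT and 677 mutant cells, the lowest. The counting intervals of the krt4/icn and ccl25b/cxcl12a gates overlapped, as did those of epyc and six2a and of fn1b/tgm2l and mmp13b/ihha. These neighbours were not separated.

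Among the compared groups of the mutant library the highest and the lowest for ptgdsb.1 were the same as in WT. The col10a1a gate stood at 7132 CPM, followed by krt4/icn at 6049, the ungated cells at 5005, mgp/f13a1b at 4773 and ccl25b/cxcl12a at 4048. The fibrous gate stood at 2715 CPM, six2a at 706, fn1b/tgm2l at 702, epyc at 468, mmp13b/ihha at 373 and matn1-high at 310. Neighbours with overlapping counting intervals here were the ungated cells and mgp/f13a1b, six2a and fn1b/tgm2l, and mmp13b/ihha with both epyc and matn1-high. The lowest place of matn1-high rested on few mmp13b/ihha cells in both libraries. Without the 2 richest cells of each group and library, mmp13b/ihha stood at 122 CPM in WT and 97.6 CPM in mutant cells. By the same rule matn1-high stood at 165 and 285 CPM, so the order of these gates turned. The mgp/f13a1b gate, below the fibrous gate in WT, stood above it and above ccl25b/cxcl12a in the mutant library.

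Most ptgdsb.1 UMIs lay in a minority of cells. Cells with at least 10 UMIs of the gene made up 15.6% of WT and 22.7% of mutant cells and held 91.3% and 92.3% of its UMIs. The brightest WT cells had 284, 250 and 213 UMIs. The brightest mutant cells had 843, 349 and 306. The cell with 843 stood apart, and ptgdsb.1 made up 6.42% of its 13127 UMIs.

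Many of the bright cells formed 1 group that the gates had split. In a clustering that left the 6 genes out of the variable genes, cluster 6 (178 WT and 149 mutant cells) led with si:ch211-153b23.5, ppp1r1c, cyp2ad2, tmsb1, ucmaa, aqp3a and cxcl14. It held 51.7% of the WT and 41.2% of the mutant UMIs of ptgdsb.1, at 10167 CPM and 16291 CPM. Cluster 6 took 59 of the 100 WT cells and 32 of the 53 mutant cells of the col10a1a gate, and these 59 and 32 cells held 4038 of 4113 and 2770 of 2802 of that gate's ptgdsb.1 UMIs. The col10a1a-gated cells in cluster 8, which led with the hypertrophic and osteoblast genes mmp13b and spp1, numbered 36 and 19 and had 22 and 29 UMIs. Nearly all ptgdsb.1 UMIs of the col10a1a gate thus came from its cluster 6 cells. The krt4/icn gate was uneven too. Its cells in cluster 13, which led with cfd and krt4, numbered 20 in WT and 14 in the mutant library. They held 1042 of 1575 WT and 1344 of 2226 mutant ptgdsb.1 UMIs of that gate. Its cluster 6 cells (6 and 4) held 400 and 562, and its 25 cluster 5 cells in each library held 42 and 194.

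A gate on cyp2ad2 (a cytochrome P450 gene), cxcl14 (a chemokine gene) and aqp3a (an aquaporin gene) was added after these values were seen. It held 139 WT and 142 mutant cells, with 7233 and 10532 ptgdsb.1 UMIs, or 10211 CPM and 15037 CPM. After each cell was thinned to 3100 UMIs, 92.2% of its WT cells and 95.9% of its mutant cells had a ptgdsb.1 UMI, against 94.2% and 96.5% unthinned. In the matn1-high gate the thinned shares were 21.5% and 33.3%, and the unthinned shares 37.3% and 57.0%, although those cells were deeper (median 8009.5 and 9511 UMIs, against 4931 and 4782). No group lacked the gene, so how much of the low shares came from free RNA in the droplets was not tested.

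Over all cells ptgdsb.1 was 1218 CPM in WT cells and 1676 CPM in mutant cells, a ratio of 1.38 (1.35 to 1.40). Of all 11522 genes with at least 20 UMIs, 5.45% were 2-fold or more higher and 8.51% 2-fold or more lower in the mutant library, and 0 of the 5 prostaglandin genes that could be counted passed either fold. The median log2 ratio of all these genes was -0.13, so a ratio of 1 lay above the median gene. By group, ptgdsb.1 was higher in the mutant library in 10 of 11 groups, with the interval above 1 in 7 of them. The direction turned under at least 1 other way of grouping or leaving out cells in the ccl25b/cxcl12a, col10a1a, epyc and mmp13b/ihha gates.

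Among the 11 compared groups the largest ptgdsb.1 ratio was in the mgp/f13a1b gate, named for matrix Gla protein and a coagulation factor XIII subunit. There 240 UMIs in 49 WT cells gave 994 CPM. In 85 mutant cells 2739 UMIs gave 4773 CPM, and the ratio was 4.80 (4.21 to 5.50). Without the 2 cells richest in the gene in each library the ratio was 5.81 (4.93 to 6.90), and cells with at least 10 UMIs were 18.4% of the WT and 43.5% of the mutant cells. Both ptgdsb genes passed 2-fold in this gate, where 9.66% of 2257 genes did so in that direction. The ratio depended on where the gate was drawn. On the log2 scale it was 1.11 with the CPM minimum of every gate halved, against 2.26 as gated. In cluster 5, which held most of the gate's cells, the log2 ratio was 0.85. Cluster 5 held 39 of the 49 WT and 66 of the 85 mutant cells of the gate. Fibrous connective tissue genes summed to 1652 CPM in the WT and 861 CPM in the mutant cells of the gate, chondrocyte genes to 14434 and 11903 CPM, and median depth was 3917 and 6209 UMIs. Their part in the ratio was not tested.

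In the other gates the ptgdsb.1 ratios were smaller. They were 1.59 (1.44 to 1.75) in fn1b/tgm2l, 1.58 (1.47 to 1.70) in matn1-high, 1.54 (1.45 to 1.65) in krt4/icn and 1.37 (1.29 to 1.46) in the fibrous gate. The col10a1a gate gave 1.18 (1.12 to 1.23), the ungated cells 1.11 (1.07 to 1.15), six2a 1.08 (0.960 to 1.22), mmp13b/ihha 1.04 (0.810 to 1.32) and ccl25b/cxcl12a 1.02. The intervals of the last 3 included 1. The fn1b/tgm2l ratio came mostly from a minority of its cells. Cluster 4 held 209 of its 297 WT and 133 of its 195 mutant cells, with 75 and 160 ptgdsb.1 UMIs. Its cluster 5 cells, 43 and 27, held 550 of 768 WT and 460 of 932 mutant UMIs, and 2 mutant cluster 6 cells held 170. The matn1-high and six2a gates, like epyc below, drew on different clusters in the 2 libraries. Cluster 0 held 68 of 772 WT and 250 of 677 mutant cells of the matn1-high gate, and cluster 2 held 242 and 104. Taken whole, the 3 clusters with most matn1-high cells gave ptgdsb.1 ratios of 1.37 (1.22 to 1.53) for cluster 0, 1.49 (1.25 to 1.77) for cluster 1 and 0.822 (0.655 to 1.03) for cluster 2. Of the six2a gate, cluster 0 held 78 of 139 mutant cells, and cluster 11 had the most WT cells, 18 of 64. Cluster 11 taken whole gave a ptgdsb.1 ratio of 0.608 (0.496 to 0.742). Without the 2 richest cells of each library its ratio was 0.698 (0.539 to 0.897). None of the countable prostaglandin genes passed 2-fold higher in the col10a1a (background 4.26% of genes), krt4/icn (3.44%), ccl25b/cxcl12a (2.36%), fibrous (2.77%), fn1b/tgm2l (6.1%), six2a (11.4%), matn1-high (7.43%), epyc (7.78%) or ungated (5.74%) cells. For this count a sum under 3 UMIs was set to 3, which decided 1 case: ptgs2a in the epyc gate had 2 WT and 20 mutant UMIs, a ratio of 2.59 (0.629 to 22.9) as counted and a log2 ratio of 0.79, under 2-fold, with 3 in place of 2.

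The epyc gate was the only one of the 11 groups with less ptgdsb.1 in the mutant library, at a ratio of 0.688 (0.607 to 0.781), and this rested on few cells. The 2 richest WT cells of that gate held 57.8% of its 344 WT UMIs. Without the 2 richest cells of each library the ratio was 1.13 (0.940 to 1.36). The gate also drew on different clusters, since cluster 0 held 13 of its 62 WT cells and 98 of its 159 mutant cells.

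The ungated cells were mixed. Those inside the cyp2ad2/cxcl14/aqp3a gate (54 WT and 82 mutant cells) had 9562 CPM in WT cells and 17647 CPM in mutant cells, a ratio of 1.85 (1.76 to 1.93). Those outside it (172 and 268 cells) had 2566 and 2017 CPM, a ratio of 0.786 (0.743 to 0.832). These ratios lie on opposite sides of 1, a difference that 1 library per genotype cannot test. Over the whole added gate the ratio was 1.47 (1.43 to 1.52), and over cluster 6 it was 1.60 (1.56 to 1.65).

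**Figure D1:**
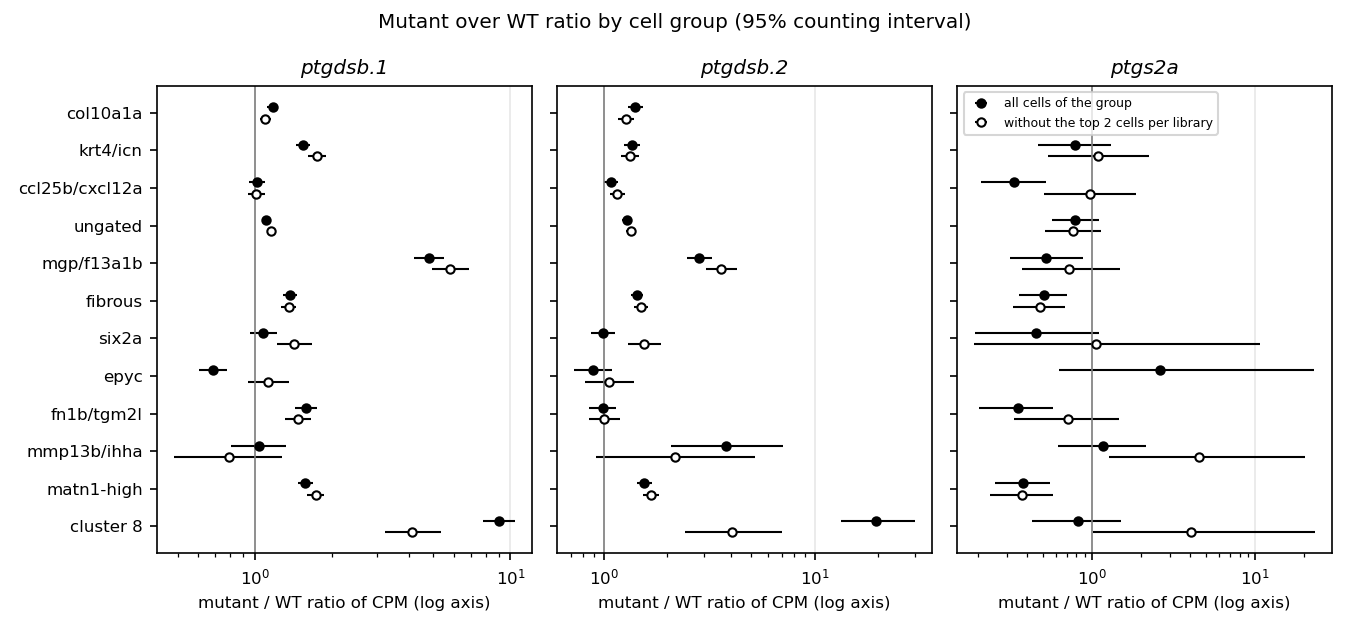
Mutant over WT ratio of CPM (log axis) for ptgdsb.1, ptgdsb.2 and ptgs2a by cell group, with 95% counting intervals, for groups with at least 20 UMIs of the gene; filled points use all cells and open points leave out the 2 cells of each library with most UMIs of the gene. For ptgdsb.1 the open point of cluster 8 falls from 8.99 to 4.14, while in the mgp/f13a1b gate it rises from 4.80 to 5.81; for ptgs2a the open point of the ccl25b/cxcl12a gate lies at 0.970.

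The ratio of ptgdsb.1 among hypertrophic cells turned on how those cells were delimited. By cluster, the cells that led with mmp13b, a collagenase gene, and spp1, which encodes osteopontin (cluster 8, 108 WT and 73 mutant cells), had 219 WT and 1450 mutant UMIs, a ratio of 8.99 (7.80 to 10.4). Of the 1450, 843 came from 1 cell and 349 from another. The cell with 843 UMIs passed the ifitm5/bglapl gate, with 26 bglapl, 47 col10a1a and 6 mmp13b UMIs, and the cell with 349 passed the mgp/f13a1b gate. Without the 2 richest cells of each library the ratio of cluster 8 was 4.14 (3.23 to 5.35). This still rested on few cells, since 1 mutant cell held 65 of the remaining 258 UMIs and 1 WT cell 31 of the remaining 85. In the whole cluster 6 mutant cells had at least 10 UMIs and held 95.6% of the 1450. Neither the cell with 843 nor the cell with 349 UMIs passed the mmp13b/ihha gate. In that gate 80 WT and 41 mutant cells had 199 and 103 UMIs and the ratio was 1.04. That value too came from few cells, since 101 of the 199 WT UMIs lay in 1 cell, and without the 2 richest cells of each library 65 and 26 UMIs remained.

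**Figure D2:**
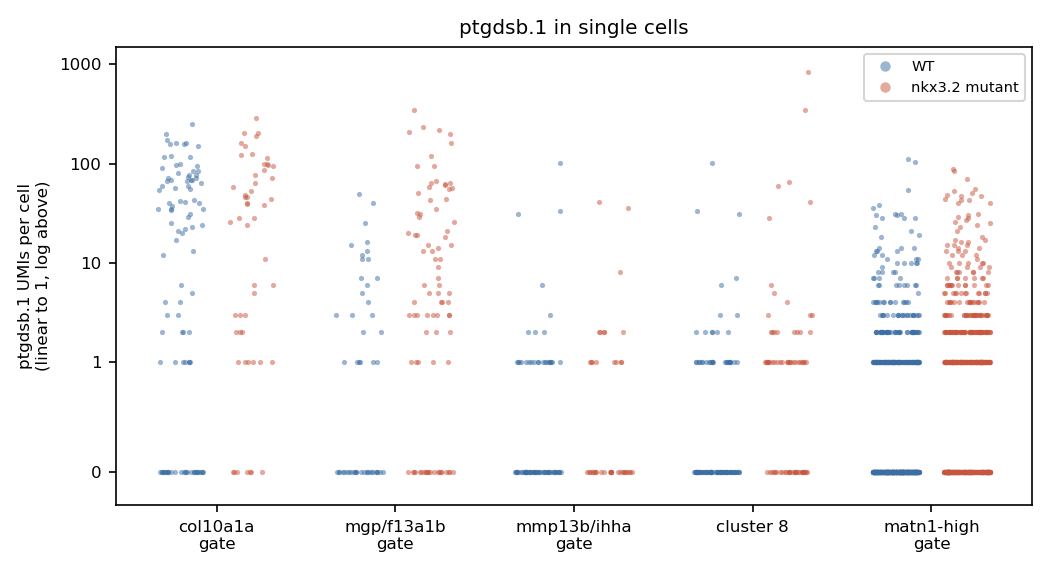
ptgdsb.1 UMIs in each cell of the col10a1a, mgp/f13a1b, mmp13b/ihha and matn1-high gates and of cluster 8, WT blue and mutant red, on an axis that is linear up to 1 and logarithmic above. Cells of the col10a1a gate fall into a bright set and a set near 0, and cluster 8 of the mutant library has 2 cells, at 843 and 349 UMIs, far above the rest.

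The neighbouring gene ptgdsb.2 (ENSDARG00000071626) had 9160 WT and 15438 mutant UMIs, 660 and 951 CPM over all cells, a ratio of 1.44 (1.40 to 1.48). In the RefSeq annotation of the GRCz12tu assembly ptgdsb.1 and ptgdsb.2 lie next to each other on chromosome 24. How reads shared by such copies were counted is not given in the sources used here, so the split between them is uncertain. The WT level of ptgdsb.2 was highest in the ccl25b/cxcl12a gate at 3482 CPM, followed by krt4/icn at 2360, ungated at 1955, col10a1a at 1862 and fibrous at 1641. It was lowest in the mmp13b/ihha gate at 32.5 CPM. Unlike ptgdsb.1, ptgdsb.2 was thus not highest in the col10a1a gate among the fixed gates, although the added cyp2ad2/cxcl14/aqp3a gate was high for both, with ptgdsb.2 at 3518 CPM in WT cells and 5929 CPM in mutant cells.

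By group the ptgdsb.2 ratio was above 1 in 8 of 11 groups, with the interval above 1 in all 8. In fn1b/tgm2l, six2a and epyc it was below 1 with intervals that included 1, and all 3 lay above 1 with TMM scaling. Under 13 other settings, TMM among them, the ptgdsb.2 ratio stayed below 1 in 6 for fn1b/tgm2l, 4 for six2a and 8 for epyc. It was 2.84 (2.48 to 3.27) in the mgp/f13a1b gate, 1.56 (1.43 to 1.69) in matn1-high, 1.44 (1.34 to 1.54) in the fibrous gate and 1.41 (1.30 to 1.53) in the col10a1a gate. The highest ratio, 3.79 (2.08 to 7.12) in the mmp13b/ihha gate, came from 18 WT and 34 mutant UMIs. It was the 1 prostaglandin gene of the 3 countable there to pass 2-fold, as did 3.26% of 2421 genes. Without the 2 richest cells of each library its interval in that gate was 0.919 to 5.24.

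The balance of the pair differed between cell groups. Of the UMIs of both genes, ptgdsb.1 took 64.9% (64.3 to 65.4, exact binomial interval) in all WT cells and 63.8% (63.3 to 64.3) in all mutant cells. In the col10a1a gate its share was 76.5% and 73.1%, and in the cyp2ad2/cxcl14/aqp3a gate 74.4% and 71.7%. In the ccl25b/cxcl12a gate it was 53.2% and 51.8%, and in the fibrous gate 54.7% and 53.5%. In each library the col10a1a and cyp2ad2/cxcl14/aqp3a shares lay above the ccl25b/cxcl12a and fibrous shares with no overlap of intervals. The first 2 are not separate groups. Of the col10a1a gate, 50 of 100 WT and 31 of 53 mutant cells also passed the added gate. These cells held 3659 of its 4113 WT and 2742 of its 2802 mutant ptgdsb.1 UMIs. The col10a1a cells outside the added gate had shares of 73.6% (69.9 to 77.0) in WT and 61.2% (50.8 to 70.9) in the mutant library. The largest genotype differences were in the mgp/f13a1b and mmp13b/ihha gates. The mgp/f13a1b gate had 50.5% (45.9 to 55.1) in WT and 63.3% (61.9 to 64.8) in the mutant library. Its difference was not seen in cluster 5, which held most of the gate's cells. There the shares were 60.0% (58.1 to 61.8) and 60.2% (59.0 to 61.3). In the WT cells of the gate, 9 of 49 cells held 80% of the 240 ptgdsb.1 UMIs. The mmp13b/ihha gate had 91.7% and 75.2%, from 199 and 103 ptgdsb.1 UMIs and 18 and 34 ptgdsb.2 UMIs. A few cells held most of these ptgdsb.1 UMIs in each library, so the mmp13b/ihha difference rested on few cells. The matn1-high gate had 58.1% and 58.5%.

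**Figure D3:**
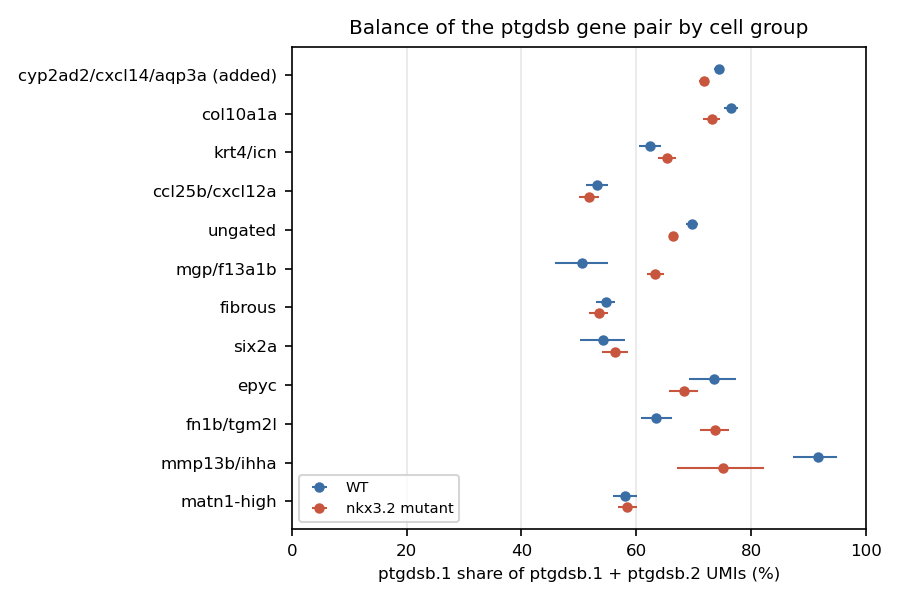
Share of ptgdsb.1 among the UMIs of ptgdsb.1 and ptgdsb.2 (percent) by cell group, WT blue and mutant red, with exact 95% binomial intervals. The ccl25b/cxcl12a and fibrous gates lie near 50%, at 51.8 to 54.7%, and the col10a1a and cyp2ad2/cxcl14/aqp3a gates, which share cells, at 71.7 to 76.5%.

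The cyclooxygenase gene ptgs2a (ENSDARG00000004539), 1 of 2 zebrafish genes for the inducible enzyme, was less abundant and was distributed differently. It had 581 UMIs in 188 WT cells and 350 UMIs in 191 mutant cells. In WT its level was 215 CPM in the ccl25b/cxcl12a gate, 145 in the fibrous gate, 120 in mgp/f13a1b and 97.0 in krt4/icn. It was 15.2 CPM in the matn1-high gate, 5.90 in the col10a1a gate and 3.95 in the epyc gate. In the mutant library krt4/icn stood at 76.1 CPM, the fibrous gate at 72.8, ccl25b/cxcl12a at 71.8 and mmp13b/ihha at 65.1. The col10a1a gate there had 0 UMIs in 53 cells, where 3 UMIs would be 7.64 CPM. The col10a1a gate, highest of the fixed gates for ptgdsb.1, was thus among the lowest for ptgs2a.

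After thinning to 3100 UMIs, 6.74% of WT and 5.92% of mutant cells had a ptgs2a UMI, against 9.17% and 9.57% unthinned. The thinned share was 23.5% and 19.5% in the fibrous gate, 16.7% and 24.2% in the ccl25b/cxcl12a gate and 2.49% and 1.37% in the matn1-high gate. Of thinned cells with a ptgs2a UMI, 54.2% in WT and 67.3% in the mutant library also had ptgdsb.1, against 33.7% and 45.4% of cells without ptgs2a. Within the fibrous gate the same shares were 60.0% against 47.7% in WT and 72.7% against 63.7% in the mutant library, with overlapping intervals. In the ungated cells they were 68.8% against 74.5% in WT and 66.7% against 62.9% in the mutant library, and in the ccl25b/cxcl12a gate 80% against 78% and 93.8% against 82%, so the order was not the same in every gate.

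Over all cells ptgs2a was 41.9 CPM in WT cells and 21.6 CPM in mutant cells, a ratio of 0.515 (0.450 to 0.589). It was lower in the mutant library in 8 of the 10 groups with at least 20 UMIs, with the interval below 1 in 5. The direction turned in several of the 8 groups. On the log2 scale fn1b/tgm2l went from -1.52 to 1.63 by cluster, matn1-high from -1.41 to 0.024 with marker minimums doubled, krt4/icn from -0.35 to 0.34 and six2a from -1.14 to 0.098 with them doubled, and the ungated cells from -0.35 to 0.037 with TMM scaling. In krt4/icn it also turned, to 0.13, without the 2 richest cells of each library. It passed 2-fold lower in 4 groups, at 0.334 in ccl25b/cxcl12a (background 9.85% of genes), 0.349 in fn1b/tgm2l (9.55%), 0.377 in matn1-high (6.08%) and 0.454 in six2a (10.4%, and an interval that included 1). No countable prostaglandin gene passed 2-fold lower in the mmp13b/ihha (12.4%), col10a1a (10.7%), krt4/icn (8.78%), fibrous (10%), mgp/f13a1b (11.7%), epyc (10.3%) or ungated (12.8%) cells. Countable there were 2 genes in the col10a1a gate, ptgs2a not among them, and 3 in each of the others. In the fibrous gate 144 WT and 50 mutant UMIs gave 0.503 (0.357 to 0.699). In mgp/f13a1b 29 WT and 36 mutant UMIs gave 0.523 (0.312 to 0.883). Without the 2 richest cells of each library the mgp/f13a1b ratio was 0.725 (0.370 to 1.47), an interval that included 1.

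Single WT cells held most of the WT ptgs2a UMIs in several groups. In the ccl25b/cxcl12a gate 1 WT cell held 43 of 74 UMIs, in fn1b/tgm2l 1 held 44 of 75, and in mmp13b/ihha 1 held 26 of 31. Without the 2 richest cells of each library the ratios were 0.970 (0.510 to 1.86) in ccl25b/cxcl12a and 0.712 (0.333 to 1.45) in fn1b/tgm2l. In the fibrous gate the ratio was 0.477 (0.328 to 0.681) and in matn1-high 0.374 (0.235 to 0.579), so there the lower level was spread over more cells. In mmp13b/ihha, where ptgs2a was not lower in the mutant library, the ratio with all cells was 1.16 (0.613 to 2.15). Without the 2 richest cells of each library it was 4.52 (1.26 to 20.1), from 4 WT and 9 mutant UMIs. In mammals the inducible cyclooxygenase gene is an immediate early gene. A list of 24 immediate early genes, 21 in the files and none of them ptgs2a, summed to 3584 CPM in WT cells and 2634 CPM in mutant cells. Of its 20 countable members 19 were lower in the mutant library, with a median log2 ratio of -0.67 against -0.13 for all genes. Such a fall was not particular to this list. Over all cells 12 of 13 countable chondrocyte genes were lower (median -0.62), 13 of 13 fibrous connective tissue genes (-0.79) and 7 of 7 heat shock genes (-0.46). Of 5 epithelial genes 3 were higher (0.12). In the matn1-high gate the fibrous connective tissue list had a median of -0.66 and the chondrocyte list -0.54. By gate the immediate early list differed in how far it lay from all genes. In the fibrous gate 14 of 18 were lower, with a median of -0.27 against -0.21 for all genes there. In the matn1-high gate 16 of 18 were lower, with a median of -0.68 against 0.0035. In fn1b/tgm2l 16 of 19 were lower (-0.30 against -0.07), in ccl25b/cxcl12a 11 of 17 (-0.28 against -0.13) and in six2a 15 of 15 (-0.87 against 0.04). In mgp/f13a1b 13 of 15 were lower (-0.68 against -0.10). In krt4/icn 13 of 16 were lower (-0.32 against -0.15), and in the ungated cells 12 of 18 (-0.27 against -0.24). The list was also lower in the 2 gates where the ptgs2a ratio was above 1. In mmp13b/ihha 14 of 17 were lower (-0.49 against -0.26), and in epyc 12 of 15 (-0.59 against -0.07). The part of dissociation in the ptgs2a ratio was not tested.

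The other 3 genes were close to the limit of detection. The cyclooxygenase gene ptgs1 (ENSDARG00000052148) had 15 WT and 32 mutant UMIs, a ratio of 1.82 with an interval of 0.959 to 3.62. Prostaglandin E synthase, ptges (ENSDARG00000020136), had 20 and 17 UMIs, a ratio of 0.727 (0.357 to 1.46). The second inducible cyclooxygenase gene, ptgs2b (ENSDARG00000010276), had 7 and 10 UMIs, a ratio of 1.22 (0.420 to 3.78). A genotype difference was not detectable at this depth for any of the 3 over all cells, and no group had the 20 UMIs needed for a ratio by group.

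As counted, the few UMIs of ptgs1 and ptges nonetheless lay unevenly over the groups, which was not tested. The ccl25b/cxcl12a and fibrous gates together, joined after their values were seen, held 514 cells and 19 of 47 ptgs1 UMIs (40.4%) and 16 of 37 ptges UMIs (43.2%). This was 7.81 CPM (4.70 to 12.2) for ptgs1 and 6.58 CPM (3.76 to 10.7) for ptges. The matn1-high, fn1b/tgm2l, six2a and epyc gates together held 2365 cells, and ptgs1 was 0.861 CPM (0.510 to 1.36) and ptges 0.383 CPM (0.165 to 0.754). Because gates were joined with their values in view, these intervals are descriptions and test no difference. The remaining gates and the ungated cells were in neither set. In the ccl25b/cxcl12a gate ptgs1 had 4 WT and 7 mutant UMIs and ptges 4 and 4. ptgs2b had 3 UMIs in the first set of gates and 7 in the second, too few to place it. No cell had more than 2 UMIs of any of these 3 genes.

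Of 54 other genes of the pathway, 43 were in the files by symbol and 25 had at least 20 UMIs. In the mutant library 10 of the 25 were higher and 15 lower, 1 and 4 of them by 2-fold or more, with a median log2 ratio of -0.22 (all genes -0.13). Of all genes tested 41.9% were higher, 5.45% by 2-fold or more, and 8.51% were 2-fold or more lower, so the share that was higher lay near that of all genes. Upstream, the phospholipase gene pla2g4aa, which lies beside ptgs2a in the RefSeq annotation, had 46 UMIs in each library. Among synthases, the third prostaglandin D synthase gene, ptgdsa, was 135 CPM in WT cells and 133 CPM in mutant cells, a ratio of 0.990 (0.930 to 1.05). Unlike the ptgdsb pair it was lowest in the fibrous gate, at 2.01 and 7.27 CPM, and the ccl25b/cxcl12a gate, at 8.72 and 2.48 CPM. It was 184 and 165 CPM in the matn1-high gate and 83.0 and 123 CPM in the epyc gate. Its level was not particular to these matrix gates. It was 153 and 190 CPM in mgp/f13a1b, 154 and 172 CPM in fn1b/tgm2l, and 117 and 178 CPM in col10a1a. ptges3b, a co-chaperone gene also credited with prostaglandin E synthase activity in mammals, had a ratio of 0.447 (0.373 to 0.534), and its paralogue ptges3a 0.912 (0.823 to 1.01).

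Breakdown, transport and reception were unevenly placed too. The gene hpgd, whose enzyme inactivates prostaglandins, was highest in the ccl25b/cxcl12a gate at 61.0 and 99.0 CPM and in the krt4/icn gate at 59.7 and 65.2 CPM. In the cyp2ad2/cxcl14/aqp3a gate it was 1.41 and 1.43 CPM, from 1 UMI in each library. The highest gate for ptgdsb.1 in both libraries, the added one, thus had 2 hpgd UMIs in all. The uptake transporter gene slco2a1 was highest in krt4/icn, with 13 WT and 6 mutant UMIs. Of 12 receptor genes in the files 7 had 0 UMIs, and ptger1b, a prostaglandin E receptor gene, was the 1 with at least 20. Over all cells ptger1b had 143 WT and 75 mutant UMIs, a ratio of 0.448 (0.334 to 0.597). It was 62.1 and 41.4 CPM in the cyp2ad2/cxcl14/aqp3a gate, 35.4 and 35.6 CPM in col10a1a, and 26.5 and 6.78 CPM in fn1b/tgm2l, from 46 and 9 UMIs.

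**Figure D4:**
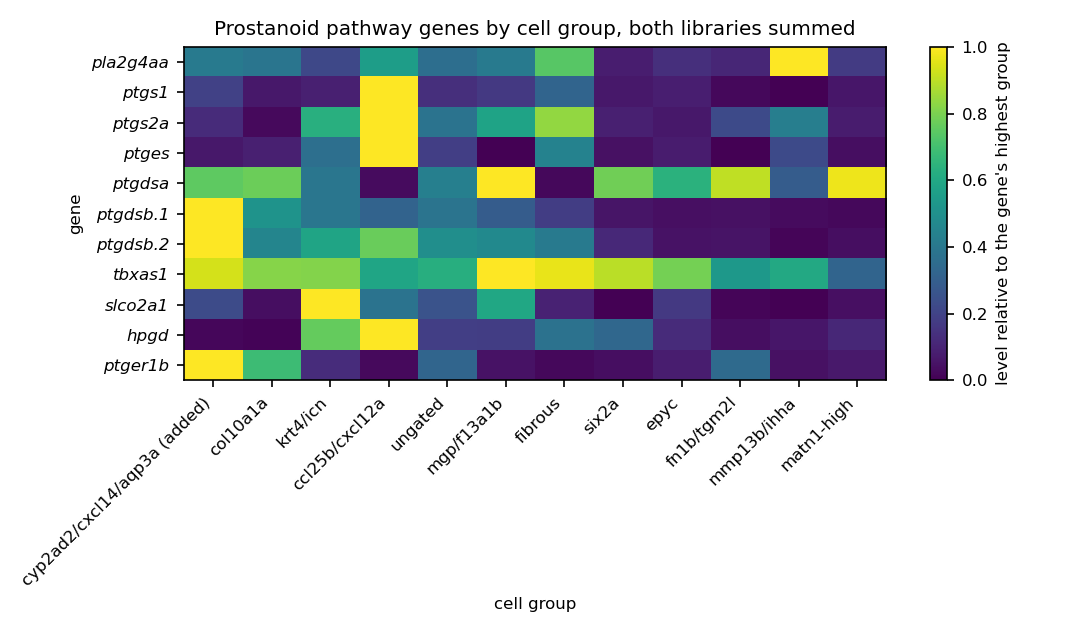
Level of 11 genes of the pathway (rows) in each cell group (columns), both libraries summed, as a fraction of the gene's highest group (colour). ptgs1, ptgs2a, ptges and hpgd peak in the ccl25b/cxcl12a gate (for ptgs2a through 1 WT cell with 43 of 103 UMIs, without which the gate falls from 138 to 81.0 CPM, below the fibrous gate at 115 CPM), ptgdsb.1, ptgdsb.2 and ptger1b in the cyp2ad2/cxcl14/aqp3a gate, and ptgdsa is near 0 in the ccl25b/cxcl12a and fibrous gates; genes such as ptgs1 (47 UMIs) and ptges (37) rest on few UMIs.

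Among 6797 genes compared over the 10 fixed gates in both libraries (20 points, which share libraries and depth within a library), the genes most like ptgdsb.1 were si:ch211-105c13.3, the homeobox gene dlx2a, the cytochrome oxidase subunit gene cox4i2, the hypoxia-inducible factor gene epas1a and dlx1a, with Pearson r from 0.850 to 0.909 on log2(CPM + 10). ptgdsb.2 itself had r = 0.924 with ptgdsb.1. The genes most like ptgdsb.2 were slc25a48, rbp4 (retinol binding protein), dlx2a, aoc2 and pkdccb, with r from 0.832 to 0.889. For ptgs2a they were the collagen genes col12a1a, col6a3, col6a2 and col6a1 and the gene si:ch211-222l21.1, with r of 0.914 or more, while r between ptgs2a and ptgdsb.1 was 0.272 and between ptgs2a and ptgdsa -0.63.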

How the data were processed

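Each deposited matrix gives whole UMI counts of every gene in every barcode. Cell Ranger is named in the submitters' processing notes, and its version and the genome build are not given in the sources used here. Per the labels' protocols cells were captured with the 10x Genomics 3' kit. The libraries held 2057 and 2005 barcodes and 13927936 and 16349558 UMIs. All barcodes had 500 UMIs and 300 genes or more and no more than 20% mitochondrial UMIs, so 0 were removed. Scrublet calls (3 WT, 9 mutant) and 3 WT cells with at least 5% globin UMIs were left out; so few calls leave most doublets undetected. No shares or levels were tested between genotypes. For detection shares every cell was thinned to 3100 UMIs and shallower cells were left out (271 WT, 190 mutant). For log2 ratios a sum under 3 UMIs was set to 3. Clusters came from 1996 variable genes (2000 were selected and the 4 of the 6 genes among them left out), 30 principal components, 20 neighbours and Leiden resolution 1 (Scanpy 1.11.5, leidenalg 0.10.2); other work used Python 3.11.15, numpy 2.4.6, scipy 1.17.1, pandas 2.3.3 and matplotlib 3.10.9. The ratio computation was tested on simulated group sums that held counting error only. With no spread between cells in them, they cannot show how well the intervals cover such spread.

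The 6 genes, the marker and pathway lists and the tests were chosen with earlier results of these data known. All 6 genes were to be named, pathway genes at 20 UMIs or more, and the 5 genes of most similar pattern for each gene with at least 100 UMIs. The marker minimums of the gates were set after the files were read, with the levels of the 6 genes in view, and were not changed afterwards; the globin gate used all globin genes because the listed ones had 0 UMIs. The cyp2ad2/cxcl14/aqp3a gate was chosen after trying gates on ucmaa, on ucmaa with aqp3a, on cxcl14 and on those genes with ppp1r1c. The clustering was first made with the 6 genes among the variable genes and then without them. The likeness of genes was first computed with the ungated cells and then without, as planned. RefSeq tables of GRCz12tu gave gene neighbours only, and 4218 entries of the files share a symbol with another entry, none of them the 6 genes. Sequences of the genes are not given here.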

Additional observations from a re-analysis of the deposited data

How the results depend on the processing

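For ptgdsb.1, ptgdsb.2 and ptgs2a, 35 ratios were recomputed under up to 13 settings each, giving 443 values. Of these 308 lay within the counting interval, 128 moved outside it and 7 changed the direction of a ratio whose interval excluded 1. The setting without a cell filter could not move a ratio, because 0 barcodes had failed the filter, and its values are among the 308. Keeping the Scrublet calls (3 WT, 9 mutant) or leaving out the 4 shared barcodes changed few cells. The 308 thus overstates how often settings able to move a ratio left it within its interval. Values below are log2 mutant over WT, and where no cause is visible in the setting itself the cause was not tested. Over all cells ptgdsb.1 went from 0.46 to 0.62 without mitochondrial and ribosomal protein genes, 0.60 with TMM scaling and 0.62 as the mean of per-cell CPM. Over all cells ptgdsb.2 went from 0.53 to 0.69, 0.67 and 0.67 under the same settings and to 0.46 with equal weight per gate, and ptgs2a from -0.96 to -0.69 as the mean of per-cell CPM. In the mmp13b/ihha gate ptgdsb.1 went from 0.05 to 2.94 with minimums halved, 3.17 by cluster, 1.15 per cell and -0.33 without the 2 richest cells. In col10a1a it went from 0.23 to 0.081 with minimums halved, -0.027 with them doubled, 0.68 by cluster, 0.66 with overlapping gates, 0.34 without mitochondrial and ribosomal protein genes, 0.36 per cell and 0.14 without the 2 richest cells. In mgp/f13a1b it went from 2.26 to 1.11 with minimums halved, 1.80 with them doubled, 0.85 by cluster, 1.49 with overlapping gates, 2.57 with TMM scaling and 2.54 without the 2 richest cells. In epyc ptgdsb.1 turned from -0.54 to 0.52 with minimums doubled, 0.45 by cluster, 0.72 with overlapping gates and 0.17 without the 2 richest cells. For ptgs2a, fn1b/tgm2l turned from -1.52 to 1.63 by cluster and matn1-high from -1.41 to 0.024 with minimums doubled. ptgdsb.1 stayed above 0 under every setting run in the fibrous (0.23 to 0.97), krt4/icn (0.53 to 0.93), fn1b/tgm2l (0.25 to 1.22), matn1-high (0.28 to 0.92), six2a (0.09 to 0.77) and ungated (0.11 to 0.76) cells, and in ccl25b/cxcl12a it ran from -0.13 to 0.25. ptgs2a stayed below 0 under every setting run over all cells and in the fibrous, ccl25b/cxcl12a and mgp/f13a1b gates. Halving or doubling the minimums changed the CPM cuts of the gates, and the matn1 limit of the fibrous gate moved with them. The least number of marker UMIs that a gate asked for was kept. By cluster, each gate was replaced by the 1 cluster that held the most of its cells. This was cluster 5 for both krt4/icn and mgp/f13a1b, cluster 1 for matn1-high and cluster 0 for both six2a and epyc. Clusters 2 and 11 replaced no gate, and their plain ptgdsb.1 ratios were 0.822 (0.655 to 1.03) and 0.608 (0.496 to 0.742). TMM scaling shifted log2 ratios by 0.14 over all cells and by 0.36 in the epyc gate. No paired analysis was possible because each genotype has 1 library. At this depth ptgs1, ptges and ptgs2b could not be compared by group.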
